A study of Homo sapiens with 9 samples.

Results

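The comparison described here sets OCI-Ly1 cells treated with 150 nM JIB-04 against OCI-Ly1 cells given the vehicle DMSO, both for 48 h, across all genes with enough reads. OCI-Ly1 is an established human line of diffuse large B-cell lymphoma. Of the 9 libraries sequenced, 6 enter this comparison, 3 with 150 nM JIB-04 and 3 with DMSO, and they were chosen by the treatment and dose in their titles. The other 3 libraries came from the same line after 48 h with 500 nM JIB-04. They share in the estimate of spread, and their levels are given beside those at 150 nM. All 9 libraries come from 1 cell line, with no genetic change named in the labels. Nothing in the labels states that replicates were separate cultures. The p-values therefore refer to the spread among these libraries, which may be only technical.

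JIB-04 is a compound that inhibits histone demethylases with a Jumonji domain, enzymes that need iron and 2-oxoglutarate to remove methyl groups from histone lysines. The transcription factor ATF4 is made when phosphorylation of eIF2α slows translation in general, and it drives genes for amino acid synthesis, amino acid uptake and tRNA charging, a programme known as the integrated stress response. Hypoxia-inducible factors, which prolyl hydroxylases of the same wider enzyme family mark for destruction, drive glycolysis genes in many tissues. Replication-dependent histone genes are transcribed mainly in S phase.

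Total RNA was depleted of ribosomal RNA, and the deposited table gives read counts for 25370 gene symbols. The 3 DMSO libraries held 44421096, 28476845 and 44307274 counts, and the 3 libraries at 150 nM held 43396003, 41761815 and 33479142. Levels below are counts scaled to a common library size (counts per 1e6, CPM), which are not divided by transcript length. Summed levels of 22 B-cell and germinal-centre markers lay between 3168 and 3270.2 CPM in the 6 libraries. Of these markers 19 reached 1 CPM in each library, while LMO2, SERPINA9 and MEF2B stayed under 1 CPM in all 6. For 18 T-cell, myeloid, natural killer and stromal markers, the summed level was 29.6 to 33.4 CPM in DMSO. At 150 nM it was 24.4 to 28.02 CPM. The groups did not overlap in this sum, and its part in the results below was not tested. Among these markers MPO, GNLY, CD163, FCGR3A and COL1A1 were at 0 in all 6 libraries. CD3G, CD3D, EPCAM and PECAM1 were detected, each at 2.78 CPM or more in all 6. The highest was CD3G, at 11.3 to 14.2 CPM in DMSO and 9.49 to 11.1 CPM at 150 nM. CD3G, CD3D and PECAM1 were lower in every 150 nM library than in every DMSO library, while in EPCAM the groups overlapped.

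After the filter on low counts, 15089 genes were tested. A gene was called, and is said below to have risen or fallen, at an adjusted p under 0.05 in edgeR's quasi-likelihood test with Benjamini-Hochberg adjustment over all tested genes. At 150 nM, 144 genes rose (0.954% of those tested) and 48 fell (0.318%), in all 192 (1.27%). All 3 libraries at 150 nM lay above all DMSO libraries for 6.41% of tested genes and below them for 7.32%, in all 13.7%. Of the called genes, 141 of the 144 that rose and 47 of the 48 that fell had groups without overlap. In a called gene this is thus the usual case and adds little to the call. For the largest changes named below it was required. At an unadjusted p under 0.05 in edgeR, 5.61% of tested genes were higher and 4.8% lower, and counts on that criterion below are to be read against these shares. Most changes were small, with 37 genes higher and 4 lower by at least 2-fold. The genes that rose had a median log2 fold change of 0.50 and a median level of 29.2 CPM, and 35 of them stayed under 5 CPM in both groups. The genes that fell had a median of -0.27 and a median level of 258.7 CPM, so they were mostly abundant transcripts that shifted by little.

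The 150 nM libraries held more RNA of many genes of the ATF4 programme. The lists were chosen with earlier results of these data known, so the counts below describe them and test nothing. Of 9 tested ATF4-pathway transcription factors 7 rose, as did 11 of 20 amino acid and one-carbon enzymes, 6 of 14 amino acid transporters and 6 of 20 cytosolic aminoacyl-tRNA synthetases. No member of these 4 lists fell, and none was lower at an unadjusted p under 0.05 in edgeR or called lower by DESeq2 or limma-voom. Their median log2 fold changes were 0.39, 0.35, 0.19 and 0.10, beside -0.003 for all tested genes. In bulk RNA, a change in the share of cells that express a gene and a change in the RNA per cell cannot be told apart.

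ATF4 and C/EBP proteins bind together at a composite DNA element, searched here as TGATGNAA on both strands of the 250 bases before each gene's start (N is any base). The promoters of the genes below are shown because they are the 4 with the largest increases among called genes of these pathways that hold a match. Of the 26 called genes searched, 22 had a promoter in the RefSeq table (GRCh38.p14), and 4 of those 22 (18.2%) held the motif, against 3.19% of all 27305 promoters and 1.58% of the 11305 tested genes with a promoter there. Each window runs 5′ to 3′ in the direction of the gene, with the match in capitals. In CHAC1 the match lies on the opposite strand, so its reverse complement is what is printed. A match is a description of the letters, and binding was not measured. The genes searched were called members of ATF4-linked lists, and uncalled members were not compared. The share is thus no test of the treatment.
ATF3: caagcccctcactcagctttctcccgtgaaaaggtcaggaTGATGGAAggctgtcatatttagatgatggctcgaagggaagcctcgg
CHAC1: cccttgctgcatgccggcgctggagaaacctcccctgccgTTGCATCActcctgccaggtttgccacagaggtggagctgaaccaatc
ASNS: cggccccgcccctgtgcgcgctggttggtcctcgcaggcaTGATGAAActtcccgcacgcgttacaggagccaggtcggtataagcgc
BCAT1: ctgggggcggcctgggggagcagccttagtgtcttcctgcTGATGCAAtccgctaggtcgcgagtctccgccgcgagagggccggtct
The windows lie at chr1:212565176-212565263 (plus strand) for ATF3, chr15:40953222-40953309 (plus) for CHAC1, chr7:97872429-97872516 (minus) for ASNS and chr12:24949102-24949189 (minus) for BCAT1. The matches begin 191, 209, 68 and 48 bases before the start, respectively. Among all called genes with a promoter in the table, 8 of 112 that rose (7.14%) and 1 of 42 that fell (2.38%) held the motif. The 8 include the 4 shown.

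**Figure D1:**
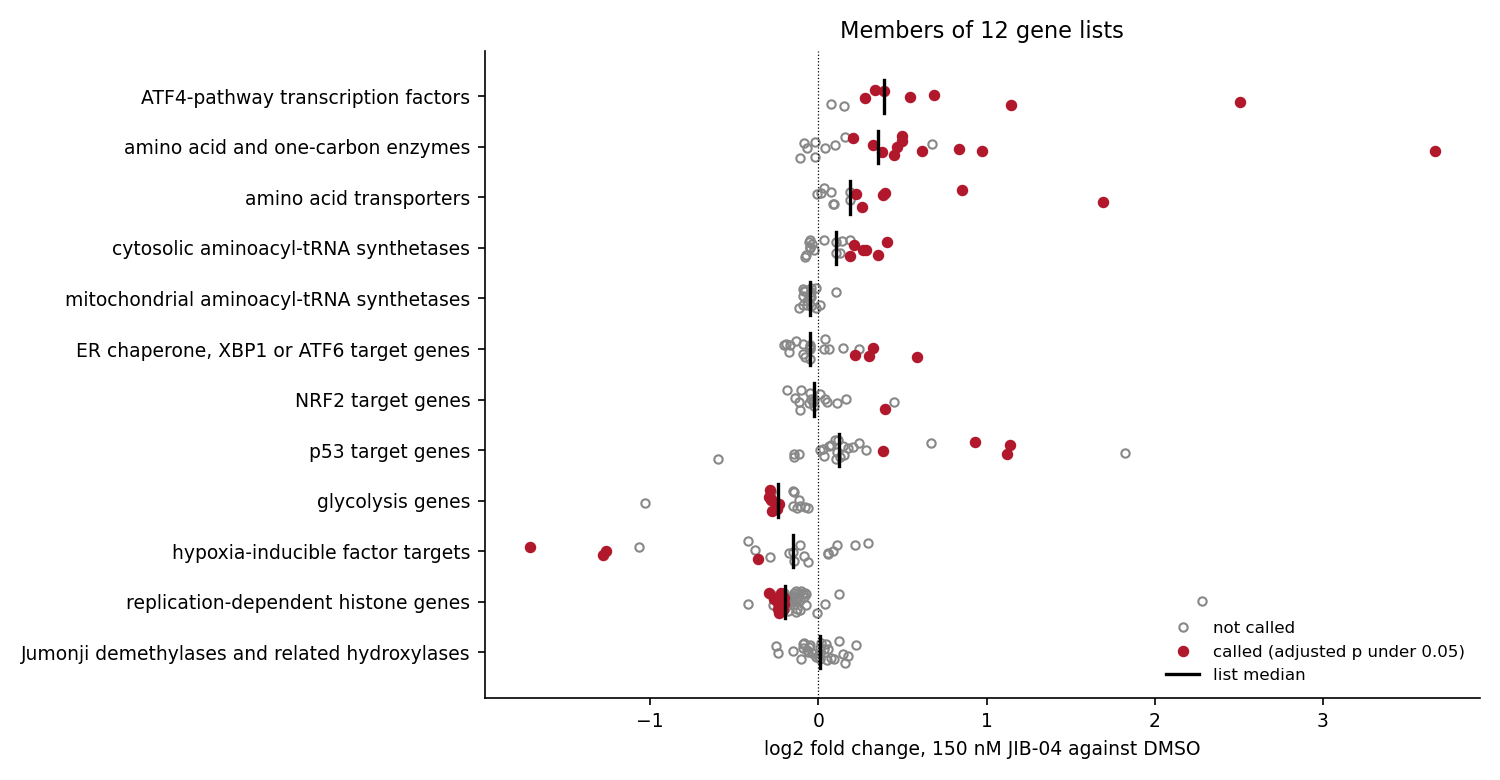
Log2 fold changes of the tested members of 12 gene lists, 150 nM JIB-04 against DMSO (horizontal axis, log2), with 1 circle per gene, filled where the gene was called, and a vertical bar at each list's median. The medians of the ATF4-pathway lists lie to the right of 0, at 0.39, 0.35, 0.19 and 0.10. Those of the glycolysis, hypoxia-inducible factor and histone lists lie to the left, at -0.24, -0.15 and -0.20. Among these lists, only the ATF4-pathway transcription factors and the glycolysis genes lie wholly on 1 side of 0.

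Among the transcription factors, ATF3, a stress-induced bZIP factor, stood at 0.464, 0.257 and 0.656 CPM in the DMSO libraries and 3.16, 2.62 and 2.44 CPM at 150 nM. Its log2 fold change was 2.51 ± 0.23 (SE, n = 3 per group, adjusted p = 2.94e-08). Every 150 nM library was above every DMSO library, from a level in DMSO that was under 1 CPM. CEBPB, a C/EBP factor that pairs with ATF4, was at 3.11, 3.74 and 3.72 CPM in DMSO and 7.35, 8.93 and 6.87 CPM at 150 nM (1.14 ± 0.12, adjusted p = 2.98e-07). DDIT3, which encodes the stress factor CHOP, went from 9.27, 9.31 and 6.46 to 12.8, 14.4 and 12.9 CPM (0.69 ± 0.11, adjusted p = 0.000348). TRIB3, a pseudokinase induced by ATF4 and CHOP, went from 50.8, 48.2 and 41.98 to 75.6, 67.5 and 62.02 CPM (0.54 ± 0.07, adjusted p = 3.67e-05). In all 3 genes the groups did not overlap.

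ATF4 itself was not called. Its level was 559, 554 and 539 CPM in DMSO and 615, 602 and 618 CPM at 150 nM, a log2 fold change of 0.15 ± 0.04 (adjusted p = 0.104). Its 150 nM libraries were all above DMSO, and with the GC trend of each library removed (described below) ATF4 was called at 0.19 ± 0.04 (adjusted p = 0.00109). The remaining called members of the list were ATF5 (0.34 ± 0.06), CREBRF (0.39 ± 0.09) and CEBPG (0.28 ± 0.06). JDP2, at 0.07 ± 0.07 (adjusted p = 0.771), was not called, and NUPR1 had too few counts to be tested. At 500 nM the same fit gave 5.95 ± 0.19 for ATF3, 3.97 ± 0.11 for CEBPB, 2.91 ± 0.11 for DDIT3, 2.51 ± 0.08 for TRIB3 and 0.59 ± 0.04 for ATF4. Both doses are measured against the same 3 DMSO libraries, so these values are not independent of those at 150 nM.

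Upstream of ATF4, 1 of 14 eIF2α kinases, phosphatase subunits and eIF2B subunits was called. This was PPP1R15A, which directs dephosphorylation of eIF2α and is itself induced in the stress response. It stood at 10.4, 10.8 and 10.6 CPM in DMSO and 15.98, 15.5 and 16.1 CPM at 150 nM (0.58 ± 0.08, adjusted p = 3.78e-05), with a narrow spread in both groups and no overlap. The kinase genes themselves had small differences, such as 0.11 ± 0.07 for EIF2AK3, which encodes PERK, and -0.09 ± 0.05 for EIF2AK4, which encodes GCN2 (adjusted p = 0.666 and 0.564). The list's median was 0.01.

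**Figure D2:**
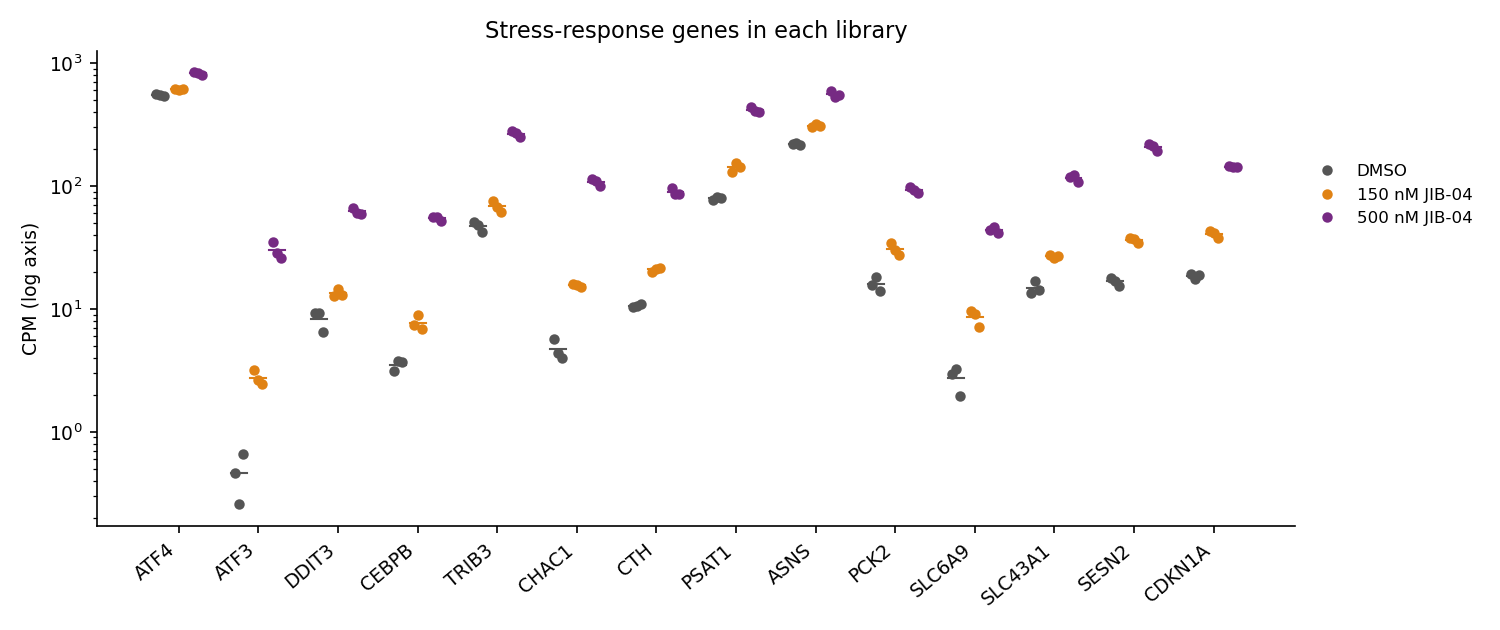
Levels in CPM (vertical log axis) of 14 stress-response genes in each library, with 1 point per library, a line at each group's mean, and colours for DMSO, 150 nM and 500 nM JIB-04. The 150 nM libraries lie above the DMSO libraries in each gene shown and below the 500 nM libraries, and the step from DMSO to 150 nM runs from 0.15 (log2) for ATF4 to 2.51 for ATF3.

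The enzymes that rose covered several routes of amino acid synthesis. PSAT1, in the serine pathway, was at 76.9, 82.00 and 79.8 CPM in DMSO and 131, 153 and 143 CPM at 150 nM (0.84 ± 0.06, adjusted p = 9.06e-11). CTH, which makes cysteine from cystathionine, was at 10.5, 10.5 and 11.1 and 20.1, 21.3 and 21.6 CPM (0.97 ± 0.08, adjusted p = 5.43e-09). ASNS, asparagine synthetase, was at 220.4, 224 and 216 and 305, 318 and 310.0 CPM (0.50 ± 0.05, adjusted p = 1.03e-07). The groups did not overlap in any of these 3, and CTH, at 1.96 times its DMSO level, changed the most of them.

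ASS1, which joins citrulline and aspartate for arginine synthesis, was barely detected in DMSO, at 0.255, 0.2199 and 0.117 CPM, and stood at 2.01, 2.55 and 3.0 CPM at 150 nM (3.66 ± 0.27, adjusted p = 3.55e-10). It has many processed pseudogenes, so its counts can be affected by how reads shared between copies were assigned. The other called enzymes were PYCR1 (0.62 ± 0.09), PSPH (0.47 ± 0.06), BCAT1 (0.49 ± 0.06), PHGDH (0.45 ± 0.06), MTHFD2 (0.38 ± 0.05), GPT2 (0.33 ± 0.06) and CBS (0.21 ± 0.05). They run from proline and serine synthesis to branched-chain transamination and mitochondrial folate metabolism. The enzymes of serine synthesis, PHGDH, PSAT1 and PSPH, all rose.

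PCK2, the mitochondrial phosphoenolpyruvate carboxykinase, is in none of the lists and was among the 12 largest increases. It was at 15.8, 18.2 and 13.95 CPM in DMSO and 34.3, 30.4 and 27.7 CPM at 150 nM (0.96 ± 0.09, adjusted p = 5.73e-08). Its groups did not overlap, which the rule for naming the largest changes required.

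Among transporters, SLC6A9, a glycine transporter, was at 2.97, 3.26 and 1.94 CPM in DMSO and 9.59, 9.098 and 7.18 CPM at 150 nM (1.69 ± 0.15, adjusted p = 8.1e-09). SLC43A1, a carrier of large neutral amino acids, was at 13.5, 17.01 and 14.1 and 27.7, 25.9 and 26.7 CPM (0.86 ± 0.08, adjusted p = 7.36e-08). The groups were apart in both genes. Smaller increases were those of SLC7A11, the cystine-glutamate exchanger (0.39 ± 0.07), SLC1A5, a glutamine transporter (0.38 ± 0.07), SLC3A2, the shared heavy chain of several exchangers (0.26 ± 0.05), and SLC7A1, a cationic amino acid carrier (0.23 ± 0.06). SLC7A5, the light chain that pairs with SLC3A2 in leucine uptake, was not called (0.19 ± 0.06, adjusted p = 0.221) and its groups overlapped.

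Aminoacyl-tRNA synthetases charge tRNAs in the cytosol, in mitochondria or in both. Of the 20 genes listed as cytosolic, WARS was at 81.6, 77.1 and 81.9 CPM in DMSO and 109, 109 and 101 CPM at 150 nM (0.41 ± 0.06, adjusted p = 3.67e-05), and GARS was at 459, 462 and 460.1 and 534, 560.2 and 587 CPM (0.28 ± 0.05, adjusted p = 0.000533). Both had groups without overlap. TARS (0.35 ± 0.06), CARS (0.26 ± 0.06), SARS (0.21 ± 0.05) and IARS (0.19 ± 0.04) also rose. The count fell from 6 to 3 without 150 nM replicate 2 and in a fit of only the 6 libraries compared, and it was 9 with GC trends removed. Of the 17 mitochondrial enzymes, 0 were called by edgeR, DESeq2 or limma-voom, and at an unadjusted p under 0.05 there were 0 as well. Their log2 fold changes ran from -0.12 to 0.10 with a median of -0.05. The difference between the 2 lists was not tested.

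Beyond amino acid genes, the largest increases included targets shared by ATF4 and other stress pathways. CHAC1, which breaks down glutathione, was at 5.703, 4.399 and 3.96 CPM in DMSO and 15.9, 15.6 and 15.1 CPM at 150 nM (1.72 ± 0.11, adjusted p = 1.13e-11). SESN2, a sestrin that restrains mTORC1 when leucine is short, was at 17.99, 16.9 and 15.3 and 37.6, 37.3 and 34.5 CPM (1.12 ± 0.07, adjusted p = 3.48e-11). The 150 nM libraries were close to each other in both genes and lay more than 2-fold above DMSO on average. Of the 12 sestrins and other brakes on mTORC1, SESN2 was the 1 called. Of 13 glutathione genes, CHAC1 and SLC7A11 rose and GSTP1, a glutathione S-transferase, fell (-0.24 ± 0.06, adjusted p = 0.0249). GSTP1 was not called in a fit of the 6 libraries compared or without DMSO replicate 2 or 150 nM replicate 2 or 3.

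Among p53 targets, 4 of 26 rose and none was called lower. The list's median was 0.12, and at an unadjusted p under 0.05 11 members were higher and 3 lower, with none called lower by DESeq2 or limma-voom. The count of 4 was 8 without 150 nM replicate 1, and 7 with DESeq2, with no filter and with GC trends removed in a blocked fit. CDKN1A, which encodes the cell-cycle inhibitor p21, was at 19.2, 17.6 and 18.8 CPM in DMSO and 43.1, 41.6 and 38.01 CPM at 150 nM (1.14 ± 0.07, adjusted p = 1.13e-11). BBC3, which encodes the pro-apoptotic protein PUMA, was at 5.47, 6.89 and 5.74 and 12.8, 10.2 and 11.2 CPM (0.93 ± 0.12, adjusted p = 8.14e-06). Every 150 nM library lay above every DMSO library in both. TP53INP1 (0.38 ± 0.05) and SESN2 were the other called members, and SESN2 is also an ATF4 target. MDM2, the p53 ubiquitin ligase and a standard p53 target, was not called, at 0.10 ± 0.05 (95% interval -0.00 to 0.20, adjusted p = 0.529), and its groups overlapped. BBC3 was the only called member of 15 BCL2-family genes tested.

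Other stress programmes differed in their calls. Of 21 endoplasmic reticulum chaperone genes and XBP1 or ATF6 targets, 5 were higher and 3 lower at an unadjusted p under 0.05 in edgeR. Of these 21 genes 4 rose (19.0%, beside 0.954% of all tested genes). They were EDEM1 (0.33 ± 0.05) and SEL1L (0.30 ± 0.05), which act in degradation of misfolded proteins, ERN1, which encodes the sensor IRE1α (0.58 ± 0.14), and HERPUD1 (0.22 ± 0.05). The count was 2 with limma-voom, in the fit of 6 libraries, and without DMSO replicate 2 or 150 nM replicate 3. HSPA5, which encodes the chaperone BiP, was at 209, 209 and 178 CPM in DMSO and 217, 164 and 181 CPM at 150 nM (-0.08 ± 0.08, adjusted p = 0.805), and DNAJB9, a target of XBP1, had 0.24 ± 0.10 (adjusted p = 0.3399). Both had groups that overlapped, and the list's median was -0.05.

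Of 18 NRF2 targets 1 rose, SLC7A11, which also belongs to the ATF4 programme. NQO1 (0.04 ± 0.10, 95% interval -0.16 to 0.23) and HMOX1 (-0.05 ± 0.09, -0.22 to 0.12) were not called. Of 16 cytosolic heat-shock genes edgeR called 0, with 7 lower at an unadjusted p under 0.05, DESeq2 called 1 lower and limma-voom 2. The smallest adjusted p was that of AHSA1, a co-chaperone of HSP90 (-0.17 ± 0.05, adjusted p = 0.06903), followed by HSPA8, the constitutive HSP70 (-0.16 ± 0.05, adjusted p = 0.0743). With GC trends removed, 3 members of this list were called lower.

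The genes that fell were led by targets of hypoxia-inducible factors. Of 20 tested targets 4 fell and none rose or was higher at an unadjusted p under 0.05, and neither DESeq2 nor limma-voom called one higher. The list's median was -0.15, and 6 of the 20 had a positive log2 fold change. PFKFB4, which sets the level of fructose-2,6-bisphosphate and so glycolytic flux, was at 11.6, 14.9 and 16.1 CPM in DMSO and 6.25, 3.85 and 2.72 CPM at 150 nM. Its log2 fold change was -1.71 ± 0.22 (adjusted p = 0.000218), with all 150 nM libraries below all DMSO libraries although the libraries of each group were spread widely. AK4, a mitochondrial adenylate kinase, was at 5.29, 6.82 and 10.4 and 4.09, 2.57 and 2.54 CPM (-1.28 ± 0.23, adjusted p = 0.00444). MIR210HG, the host transcript of a hypoxia-induced microRNA, was at 2.18, 2.64 and 3.82 and 1.08, 1.37 and 1.14 CPM (-1.27 ± 0.26, adjusted p = 0.00627). The groups did not overlap in either gene, and in AK4, PFKFB4 and MIR210HG DMSO replicate 3 was the highest of the 6 libraries. FAM162A, a mitochondrial protein gene induced by hypoxia, fell by less (-0.36 ± 0.08, adjusted p = 0.0174). Without DMSO replicate 3 the count of called targets was 2, and MIR210HG and FAM162A were no longer called. FAM162A also lost its call without 150 nM replicate 2 or 3 and in the fit of 6 libraries.

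The core of the hypoxia response element was searched as ACGTG on both strands of the same windows. These promoters are shown because they are the 2 with the largest decreases among lowered targets that hold a match, with the match in capitals, and in AK4 the capitals cover matches on both strands that overlap.
AK4: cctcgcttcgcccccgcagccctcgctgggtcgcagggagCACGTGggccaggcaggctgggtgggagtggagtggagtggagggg
MIR210HG: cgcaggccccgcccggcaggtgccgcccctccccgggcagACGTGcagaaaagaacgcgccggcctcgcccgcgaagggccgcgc
The windows lie at chr1:65147419-65147504 (plus strand) for AK4 and chr11:568583-568667 (minus) for MIR210HG, in RefSeq GRCh38.p14. The motif was in 3 of the 4 lowered targets, in 15 of 42 genes that fell (35.7%), in 19 of 112 that rose (17.0%), in 23.1% of tested genes with a promoter in the table and in 18.7% of all promoters there. The 4 lowered targets came from a list of known targets and are among the 42 genes that fell. A motif this short occurs in many promoters without being bound, and binding was not measured.

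The order of the doses differed between these genes. AK4 stood at 9.11, 7.12 and 9.53 CPM at 500 nM, a log2 difference of 0.19 ± 0.21 from DMSO (adjusted p = 0.468) and of 1.48 ± 0.23 from 150 nM (adjusted p = 2.63e-05). AK4 was thus lowest at 150 nM, and the 500 nM libraries overlapped those of DMSO. PFKFB4, at 5.89, 5.33 and 4.18 CPM, had a log2 difference of 0.25 ± 0.23 between 500 and 150 nM (adjusted p = 0.398), and those libraries overlapped. VEGFA, a classical target, was not called at 150 nM (0.22 ± 0.15, adjusted p = 0.688) and had 2.82 ± 0.14 at 500 nM.

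**Figure D3:**
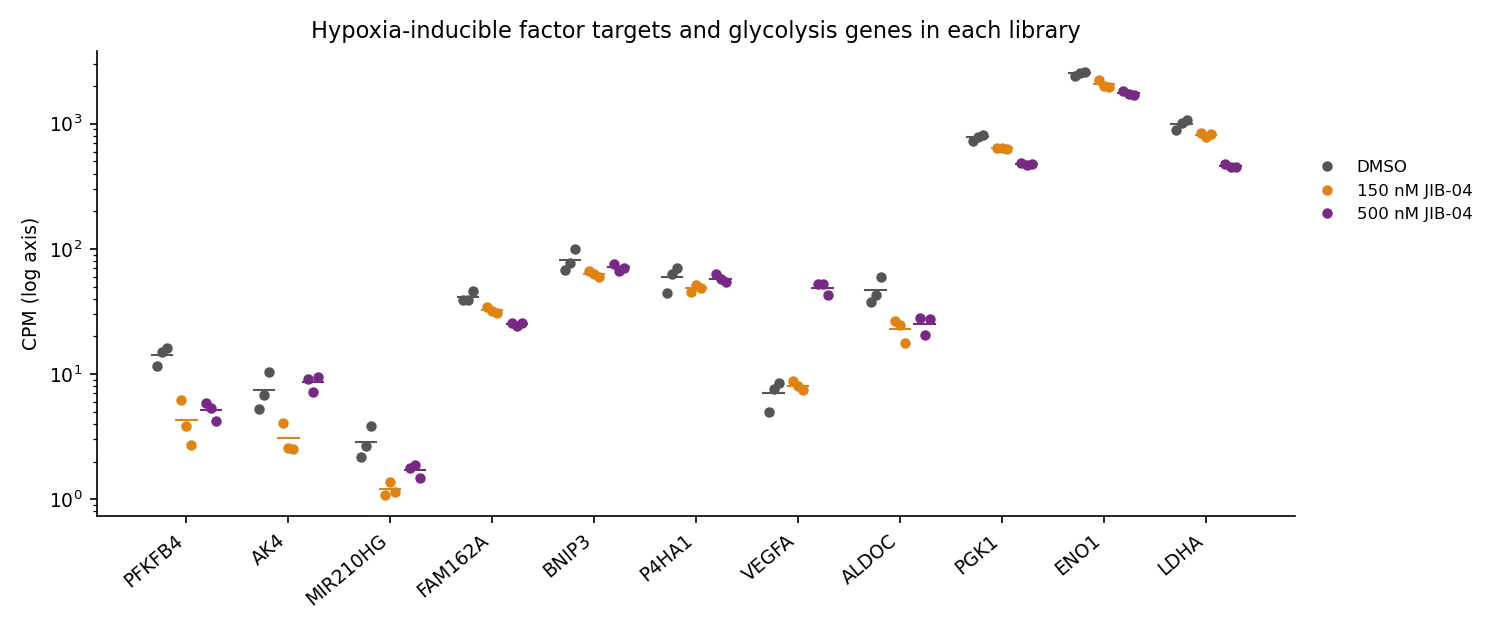
Levels in CPM (vertical log axis) of hypoxia-inducible factor targets and glycolysis genes in each library, with 1 point per library and a line at each group's mean, for DMSO, 150 nM and 500 nM JIB-04. PFKFB4, AK4 and MIR210HG are lower at 150 nM than in DMSO without overlap, AK4 at 500 nM lies within the range of DMSO, and PGK1, ENO1 and LDHA fall by less than 0.3 (log2) at 150 nM.

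Of 18 glycolysis genes 8 fell, and all 18 had a negative log2 fold change, with a median of -0.24. None was higher at an unadjusted p under 0.05, and neither DESeq2 nor limma-voom called one higher. PGK1, phosphoglycerate kinase, was at 733, 779 and 819 CPM in DMSO and 644, 638 and 632 CPM at 150 nM (-0.29 ± 0.05, adjusted p = 0.000481). TPI1, triose phosphate isomerase, was at 725, 722 and 719 and 644, 566 and 558 CPM (-0.29 ± 0.05, adjusted p = 0.000774). In both genes the lowest DMSO library was above the highest 150 nM library. PKM (-0.28 ± 0.05), ENO1 (-0.28 ± 0.05), LDHA (-0.28 ± 0.05), ALDOA (-0.25 ± 0.05), PGAM1 (-0.25 ± 0.06) and GPI (-0.23 ± 0.05) were the other called members. These were small shifts in abundant transcripts, and TPI1, for example, stood at 0.817 times its DMSO level. The count was 5 without DMSO replicate 2 and 4 without 150 nM replicate 2, and with GC trends removed it was 8 whichever library was left out. Several glycolysis genes have processed pseudogenes, which can take part of their reads.

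GAPDH (-0.14 ± 0.04, adjusted p = 0.117) was not called. ALDOC, an aldolase that is also a hypoxia-inducible factor target, had the largest difference of the list (-1.03 ± 0.22) and was not called either (adjusted p = 0.105). Its libraries were at 37.6, 43.00 and 59.3 CPM in DMSO and 26.3, 24.4 and 17.6 CPM at 150 nM, apart but spread widely within each group.

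Of 61 tested genes with HIST symbols, which cover replication-dependent and some other histone genes, 15 fell and none was called higher, with a median log2 fold change of -0.20. At an unadjusted p under 0.05, 43 were lower and 1 higher, and neither DESeq2 nor limma-voom called one higher. HIST1H2AL was at 344, 344 and 313 CPM in DMSO and 285, 261 and 272 CPM at 150 nM (-0.29 ± 0.05, adjusted p = 0.00172). HIST1H2BI was at 625, 602 and 585 and 524, 494 and 514 CPM (-0.24 ± 0.05, adjusted p = 0.007597). Neither gene had groups that overlapped. At 500 nM the same genes had -1.61 ± 0.06 and -1.84 ± 0.05.

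The histone count moved with single libraries. Leaving out DMSO replicates 1, 2 and 3 gave 4, 2 and 25 calls, and leaving out the 150 nM replicates gave 31, 1 and 8. It was 2 in the fit of only the 6 libraries, 4 with length trends removed, 28 with no filter, 30 in a fit blocked on replicate number and 32 in a blocked fit with GC trends removed. With GC trends removed it was 21, and 11 to 23 when each library was left out in turn. HIST1H2BK (-0.23 ± 0.05) and HIST1H3G (-0.26 ± 0.06) were no longer called with GC trends removed, at adjusted p = 0.1203 and 0.107. Histone genes of 1 family are near-identical in sequence, so reads of single members can be misassigned.

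**Figure D4:**
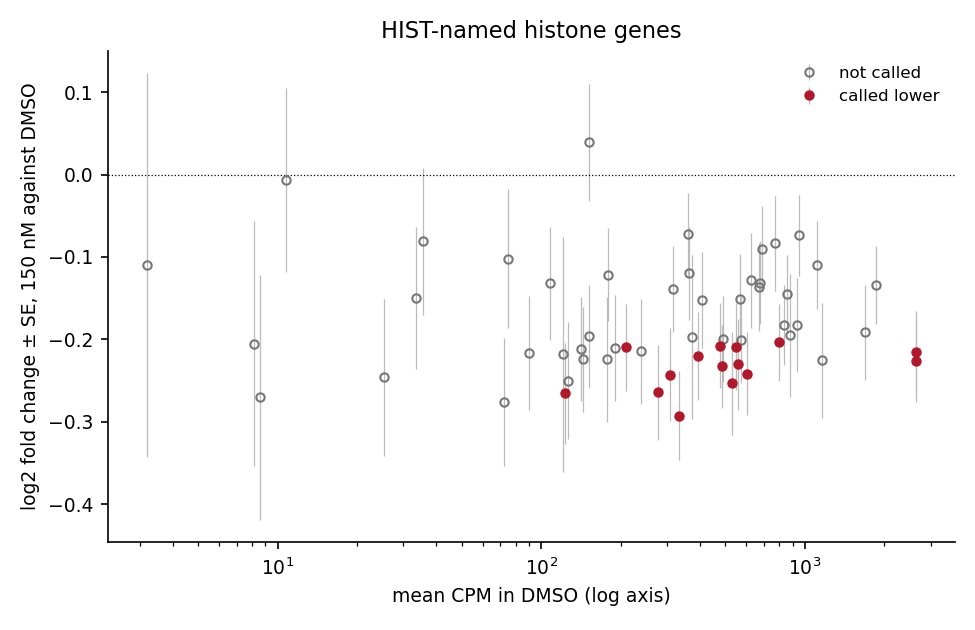
Log2 fold change with its SE, 150 nM JIB-04 against DMSO (vertical axis), against mean level in DMSO (CPM, horizontal log axis) for the 58 HIST-named histone genes with at least 1 CPM in DMSO, filled where called lower. Of these, 57 lie below 0, and the 15 called genes are all below 0.

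Cell-cycle lists had few calls. Of 25 DNA replication genes edgeR called 0, DESeq2 called 1 higher and limma-voom 0, and 1 was higher at an unadjusted p under 0.05, with a list median of 0.04. That gene was CCNE2, a cyclin (0.24 ± 0.07, adjusted p = 0.0726). Of 25 G2 and mitosis genes 1 fell, PLK1, a mitotic kinase (-0.28 ± 0.07, adjusted p = 0.02397). Its call was lost on leaving out DMSO replicate 2 or 150 nM replicate 2 or 3, and in the fit of 6 libraries. At an unadjusted p under 0.05 in edgeR, 7 members of this list were lower and 0 higher. With GC trends removed, 3 were called lower.

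The single largest increase among genes with at least 5 CPM was that of SPNS3, a gene of the spinster family of lipid transporters. It was at 0.858, 1.72 and 1.59 CPM in DMSO and 7.23, 7.19 and 6.16 CPM at 150 nM (2.34 ± 0.16, 5.07 times its DMSO level, adjusted p = 9.06e-11). ULBP1, a ligand of the natural killer receptor NKG2D, was at 1.53, 1.28 and 1.94 and 4.61, 5.66 and 6.53 CPM (1.79 ± 0.17, adjusted p = 2.94e-08). The groups were well apart in both genes, though for SPNS3 the rule for naming the largest changes required groups without overlap. SH3BP2, an adaptor protein of immune receptor signalling, had 1.20 ± 0.14, VLDLR, a lipoprotein receptor, had 0.94 ± 0.09, and ANK2, an ankyrin, had 0.93 ± 0.12. ICAM1, an adhesion molecule and NF-kB target, rose from 0.765, 0.4399 and 0.492 to 1.82, 1.69 and 1.58 CPM (1.55 ± 0.22, adjusted p = 3.91e-05), and was the only one of 19 NF-kB targets called higher. At an unadjusted p under 0.05 in edgeR, 1 of the 19 was higher and 2 lower, with a list median of -0.04. DESeq2 called 1 of them lower, as did the fit with GC trends removed. TFRC, the transferrin receptor, rose by little (0.27 ± 0.05) and was the only called member of 16 metal and iron genes.

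Some of the highest ratios came from genes that were nearly silent in DMSO. They are outside the rule for named genes and were chosen after their values were seen. ESRP1, an epithelial splicing regulator, had 14, 4 and 0 counts in DMSO and 168, 179 and 104 at 150 nM (4.58 ± 0.34). SERPINH1, a collagen chaperone, had 0 counts in each DMSO library and 26, 26 and 10 at 150 nM, which is at least 20.2-fold higher if 3 counts over the DMSO group are taken as the floor. P2RX1, an ATP-gated channel, had 2, 4 and 2 counts in DMSO and 37, 32 and 22 at 150 nM (3.41 ± 0.41), and INHBE, an activin subunit gene, had 16, 13 and 19 and then 134, 103 and 68 (2.61 ± 0.22). All 4 stayed under 5 CPM at 150 nM, and for 500 nM the levels were 48.6 ± 3.37, 4.94 ± 0.706, 11.8 ± 1.36 and 19.97 ± 1.61 CPM (mean ± SD, n = 3).

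Among the remaining decreases, TSPAN11, a tetraspanin, was at 11.7, 14.5 and 16.2 CPM in DMSO and 8.63, 7.55 and 6.0 CPM at 150 nM (-0.93 ± 0.14, adjusted p = 0.000165). CYP1A1, the cytochrome P450 induced through the aryl hydrocarbon receptor, was at 46.6, 37.7 and 36.7 and 29.2, 25.3 and 28.5 CPM (-0.55 ± 0.10, adjusted p = 0.00105). Neither gene had overlapping groups, which for TSPAN11 was required by the rule for naming the largest changes. CYP1A1 was the only one of 7 aryl hydrocarbon receptor genes called. ZNF395 fell by little (-0.38 ± 0.06) and was the 1 called among 399 tested genes with ZNF symbols. Without 150 nM replicate 1, 14 genes of this list were called higher, and without DMSO replicate 3 it was 3. LSP1, a leukocyte actin-binding protein (-0.32 ± 0.06), and NCF1, a subunit of the phagocyte oxidase (-0.46 ± 0.10), also fell. NCF1 has near-identical pseudogenes, and it was not called without 150 nM replicate 2. NRN1, SNHG4, CAMP and SPDYE8P were called too, and each lost its call under 6 or more of the 18 other settings tried.

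ZWILCH, a kinetochore gene named after its values were seen, was at 98.04, 98.2 and 104 CPM in DMSO, 111, 126 and 118 CPM at 150 nM and 107, 106 and 115 CPM at 500 nM. It was called at 150 nM (0.24 ± 0.06, adjusted p = 0.0397) and not at 500 nM (0.13 ± 0.06, adjusted p = 0.0764), and the difference between 500 and 150 nM was not called either (-0.11 ± 0.06, adjusted p = 0.127). At 500 nM 52% of tested genes were called, 26.3% higher and 25.6% lower.

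The transcripts of the compound's own enzyme family showed no call at 150 nM. Among 29 tested genes of Jumonji-type demethylases and hydroxylases, edgeR called 0, DESeq2 1 lower and limma-voom 0, and 1 was higher and 1 lower at an unadjusted p under 0.05, with a list median of 0.01. KDM4A and KDM4C, demethylases of H3K9 and H3K36, had 0.03 ± 0.07 (95% interval -0.10 to 0.16) and 0.01 ± 0.06 (-0.11 to 0.13). KDM4B had -0.15 ± 0.09 (-0.34 to 0.03), KDM5A, an H3K4 demethylase, -0.09 to 0.09 as its interval, and KDM6B, an H3K27 demethylase, 0.16 ± 0.11 (-0.06 to 0.37). The groups overlapped in all 5. JMJD1C (0.18 ± 0.06, adjusted p = 0.146) was called with GC trends removed (0.14 ± 0.04, adjusted p = 0.04103). RNA levels say nothing of enzyme activity, which was not measured. Of 14 H3K9 and H3K27 methyltransferases and partners 0 were called by edgeR, DESeq2 or limma-voom, and 0 passed an unadjusted p of 0.05.

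Of 21 B-cell and germinal-centre genes 2 rose and DESeq2 called 1 lower. BACH2, a repressor of plasma-cell fate, was among those that rose (0.20 ± 0.05, adjusted p = 0.0337). Its call was lost in the fit of 6 libraries, on leaving out either of DMSO replicates 1 and 2, and on leaving out either of 150 nM replicates 2 and 3. At an unadjusted p under 0.05 in edgeR, 2 members of this list were higher and 3 lower. The 150 nM libraries all lay above DMSO in 3 members and all below it in 3, which were IRF8, SPIB and POU2AF1. Without 150 nM replicate 1, 2 members were called lower. Of 6 plasma-cell genes, TNFRSF17, the receptor BCMA, rose (0.37 ± 0.08, adjusted p = 0.00769), though not without 150 nM replicate 2 or in the fit of 6 libraries. At an unadjusted p under 0.05 in edgeR, 1 of the 6 was higher and 1 lower. MZB1, at 189, 180 and 176 CPM in DMSO, was at 174, 157 and 159 CPM at 150 nM, without overlap. Without 150 nM replicate 1, 1 plasma-cell gene was called lower. BCL6, the master regulator of the germinal centre, was at 235, 223 and 229.6 CPM in DMSO and 231, 224 and 247 CPM at 150 nM (0.03 ± 0.05, 95% interval -0.07 to 0.13), with overlapping groups. MYC, a growth-promoting transcription factor, had -0.09 ± 0.05 (-0.19 to 0.00). Of 19 B-cell receptor signalling genes edgeR, DESeq2 and limma-voom each called 0, with 1 higher and 5 lower at an unadjusted p under 0.05. Without 150 nM replicate 1, 3 of them were called lower.

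Several large lists had no call in edgeR. Of 75 ribosomal protein genes 6 were lower at an unadjusted p under 0.05, and DESeq2 and limma-voom called 0. Of 37 complex I genes 2 were higher and 3 lower on that criterion, with 0 called by either tool. Of 224 small nucleolar RNAs 5 were higher and 2 lower, DESeq2 called 0 and limma-voom 1. Of 27 cholesterol synthesis genes 11 were lower, DESeq2 called 1 and limma-voom 0, and with GC trends removed 4 were called lower, led by HMGCS1 (-0.22 ± 0.04, adjusted p = 0.00131). Without 150 nM replicate 1, 7 genes of cholesterol synthesis were called lower, and without DMSO replicate 3, 3 ribosomal protein genes were. Of 24 MYC-network and ribosome biogenesis genes 3 were lower, and of 18 interferon-stimulated genes 1 was higher and 2 lower, with 0 called by DESeq2 or limma-voom in both lists. Of 20 immediate-early genes 2 were higher and 2 lower, DESeq2 called 1 in each direction and limma-voom 0. Of 10 tested markers of T, myeloid and stromal cells 3 were lower, with 0 called by DESeq2 or limma-voom.

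The libraries differed in how counts depended on transcript GC content, and this bore on how many genes were called. For each library the deviation from the mean of all 9 was smoothed over the GC content of each gene's longest transcript. The trend is given as the log2 difference of that curve between the 90th percentile of GC (61.6%) and the 10th (38.4%). It was 0.13, -0.02 and -0.17 in DMSO replicates 1 to 3 and 0.13, -0.17 and -0.24 in the 150 nM replicates. The spread within each group was thus larger than the difference between the means (-0.02 ± 0.15 and -0.09 ± 0.19, SD, n = 3), which was -0.07 with an exact two-sided permutation p of 0.6. With 3 libraries against 3, such a test cannot go below 0.1.

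Fold changes differed slightly with GC content. In 5 equal bins of genes from the lowest to the highest GC content, the median log2 fold change was 0.05, 0.02, -0.02, -0.04 and -0.03. Genes that fell had a median GC content of 54.2%, against 48.0% for genes that rose and 48.3% for all tested genes. With each library's GC trend removed as an offset in the fit, the biological coefficient of variation (the spread between libraries of a group beyond counting error) went from 0.0744 to 0.0589. The number of calls went from 192 to 353 (2.34% of those tested), 247 higher (1.64%) and 106 lower (0.702%).

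Of the 192 genes, 189 were also called with GC trends removed, which is 98.4% of the first set and 53.5% of the second. The largest move of a log2 fold change among called genes was 0.08. The 3 genes lost were NRN1, HIST1H2BK and HIST1H3G, all lower. The genes gained, 103 higher and 61 lower, had a median absolute log2 fold change of 0.20, against 0.38 for the 192. Gained genes of the stress programmes were MARS, a tRNA synthetase (0.23 ± 0.04, adjusted p = 0.000121, from 0.0726 without removal), SLC7A5 (0.22 ± 0.04, 0.000665 from 0.221) and DDB2, a p53 target in nucleotide excision repair (0.24 ± 0.05, 0.000672 from 0.0743). Gained lower were HMGCS1, FAM81A (-0.22 ± 0.04), HIST1H2AG (-0.18 ± 0.04) and HIST1H2AK (-0.22 ± 0.05).

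With removal the count varied less between fits that left out single libraries. Without removal, the count was 151, 107 and 267 without DMSO replicates 1, 2 and 3, and 545, 98 and 148 without the 150 nM replicates, a 5.56-fold range. With removal, in an alternative added after the data were seen, it was 308, 236 and 372, and 348, 219 and 289, a 1.70-fold range. The highest count without removal came from leaving out 150 nM replicate 1, whose GC trend was opposite in sign to those of the other 150 nM libraries.

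**Figure D5:**
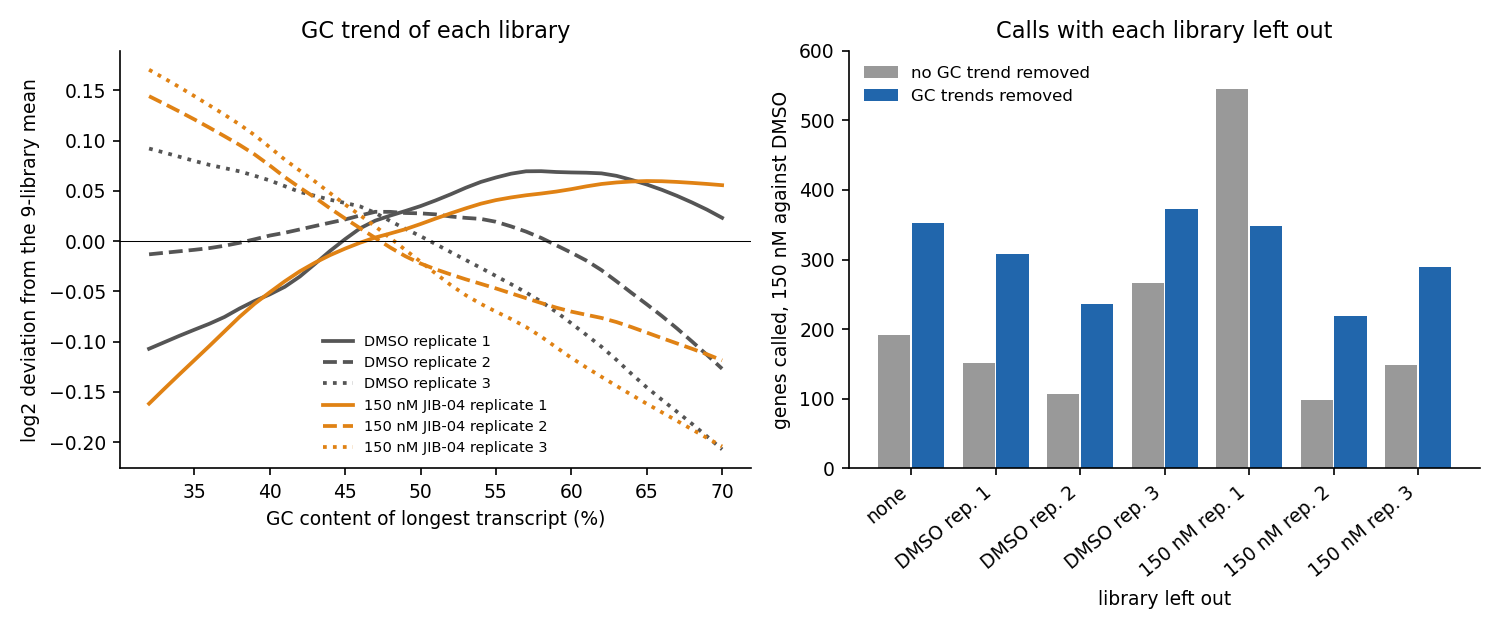
Left, the smoothed log2 deviation of each DMSO and 150 nM library from the mean of all 9 libraries (vertical axis) against the GC content of the longest transcript (horizontal axis, %). Right, the number of genes called for 150 nM against DMSO with each library left out, without and with GC trends removed, where the bars run from 98 to 545 without removal and from 219 to 372 with it.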

How the data were processed

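RNA-seq read counts per gene symbol were deposited by the authors for 9 libraries, 1 column per library, as whole numbers with no normalization. Per the submitters' processing notes, the tools were featureCounts 1.4.6 of Subread, Bowtie2 2.2.6 and TopHat2 2.0.14, with the builds hg19 and mm10 named without their roles. Per the labels' protocols, total RNA was depleted of ribosomal RNA. For the annotation and strandedness of the counting, the labels give nothing. Whether reads of overlapping genes on opposite strands were kept apart is therefore not known.

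Counts were analysed in R 4.3.3 with edgeR 4.0.16 (filterByExpr with minimum count 10 and minimum total 15, TMM scaling, robust quasi-likelihood fit of all 9 libraries, which share 1 estimate of spread). Errors of log2 fold changes are SEs derived from the F statistic of the quasi-likelihood test. CPM are counts per 1e6 after TMM scaling, and intervals are 95% intervals from the SE. GC content and length came from each gene's longest GENCODE v29 transcript, found for 95.8% of tested genes and all called genes. GC trends were lowess curves (span 0.3) of each library's log2 CPM (prior count 2) and were removed as offsets. Fits were tested on simulated data.

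Members and lists were chosen with earlier results of these data known, and the 36 lists are described by counts and medians, without set tests. Of their members, 26 were matched through another symbol. Named genes were the 12 largest increases and decreases among called genes whose groups did not overlap and whose higher mean was at least 5 CPM, up to 4 called members per list and direction, up to 2 members of lists without calls, a fixed set that includes ATF4, KDM4A, HSPA5 and BCL6, and up to 4 genes gained per direction and those lost with GC trends removed. Other genes, among them the remaining called members of small lists, were named after their values were seen. A result for a list member is not reported here.

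Alternatives were DESeq2 1.42.0, limma-voom (limma 3.58.1), DESeq2 size factors or total-count scaling, a filter of 1 CPM in 3 libraries or none, a fit of only the 6 libraries, the replicate number as a block, GC trends removed (also with the block), length trends removed, thinning to the smallest total and leaving out each library. Added after the data were seen were GC removal with each library left out and a span of 0.7. Libraries of the same group were further apart than counting noise (chi-square per degree of freedom 6.62 to 16.1), so all were kept apart.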

Additional observations from a re-analysis of the deposited data

How the results depend on the processing

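The count of genes that rose, 144, was 243 with no filter, 82 in the fit of only the 6 libraries, 247 with GC trends removed, 273 with the replicate block added to that, and 249 with a lowess span of 0.7. It was 85 to 368 when each library was left out, and with GC trends removed as well 220, 181 and 263 without DMSO replicates 1, 2 and 3 and 234, 172 and 201 without the 150 nM replicates. The count of genes that fell, 48, was 81 with DESeq2, 77 with no filter, 19 in the fit of 6 libraries, 106 with GC trends removed, 140 with the block added and 120 with a span of 0.7. It was 13 to 177 when each library was left out, and with GC trends removed 88, 55 and 109 without the DMSO and 114, 47 and 88 without the 150 nM replicates. DESeq2 size factors, total-count scaling, limma-voom, the 1 CPM filter, length trends removed and thinning kept both counts within 1.5 times.

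With the replicate number as a block, 209 genes rose and 99 fell. Same-numbered DMSO and 150 nM libraries had deviations from their group means that correlated at 0.0126 to 0.104, and different-numbered ones at -0.0829 to 0.0081. Between these 2 groups each library thus correlated best with its own number, though weakly. This did not hold for the 500 nM libraries, which the block also covers. DMSO replicate 1 correlated at -0.0525 with 500 nM replicate 1, and at 0.0230 and 0.0241 with replicates 2 and 3. No DMSO or 150 nM library correlated best with its own number at 500 nM. The block lowered the biological coefficient of variation from 0.0744 to 0.0669. The labels do not say that numbers pair libraries, and the main fit has no block. Whether same-numbered libraries were handled together was not tested.

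Of 60 named genes that were called, 42 kept their call under all 18 settings other than the added ones. Signs turned only in genes not called. KDM5A, with all libraries at 0.00, was 0.00577 with DESeq2 size factors, 0.0167 with total-count scaling, 0.00587 with DESeq2, 0.000997 with limma-voom, 0.0126 with no filter, 0.00183 in the fit of 6 libraries, 0.00484 after thinning and -0.00766 to 0.0127 when each library was left out. When each library was left out, the range crossed 0 for KDM4A (-0.0255 to 0.0812), KDM4C (-0.0116 to 0.0376), KDM3A (-0.00907 to 0.150), HSPA5 (-0.201 to 0.00667), NQO1 (-0.0380 to 0.116) and BCL6 (-0.0106 to 0.0628). The cause of these changes was not tested. DMSO replicate 2 was the shallowest library, and genes under 5 CPM have the widest errors.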
